A study of Mus musculus with 12 samples.

Results

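The data were reads of autosomal genes assigned to 1 or the other parental genome in 6 libraries of RNA from female mouse ES (embryonic stem) cells sampled at day 7, by the labels' protocol after leukaemia inhibitory factor (LIF), which keeps such cells undifferentiated, had been withdrawn at day 0. A gene was kept where each of the 6 libraries held at least 20 reads resolved to a parental genome, which left 10658 of 50957 autosomal genes, out of 55487 genes in the matrix and 12 libraries in the series. The cells were C57BL6/CAST hybrids, so that their parental chromosomes differ at many single bases and a read crossing such a base can be assigned to genome 1 or genome 2. The labels do not say which strain is genome 1. The 6 libraries were 3 wild type and 3 labelled SIRT7-KO, a knockout of the sirtuin gene Sirt7, all female and all hybrid. The 6 day 0 libraries of the same genotypes, grown with LIF by that protocol, served only to class regions and as an earlier time point. Whether the knockout was 1 clone, and whether replicates came from separate cultures, the labels do not say, so that p-values measure the spread between these libraries, which may be technical. The labels also carry a treatment entry that goes against the protocol: on both days it reads LIF for wild-type replicate 2 and knockout replicates 1 and 3 and None for the other libraries. It was not used, and which of these is right cannot be told from the labels.

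In a hybrid cell both alleles of a gene share the same nucleus and the same transcription factors. A difference in their RNA therefore commonly reflects sequence differences near the gene, an imprint set by the parent of origin, or loss of a parental copy, and RNA of 1 cross direction cannot tell these apart. The counts also depend on how reads were assigned to a genome, which is not given, and its part in the shares was not tested. Genes that switch on as ES cells leave pluripotency, such as those of mesoderm, blood vessels and epithelium, can be read by allele only once they are expressed.

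The day 7 cells no longer had the profile of undifferentiated ES cells. The summed level of 6 ES cell genes (Pou5f1, Nanog, Zfp42, Esrrb, Klf4 and Dppa5a) was 209 to 237 CPM (counts scaled to library size) at day 7, against 6217 to 6452 at day 0. That of 6 mesoderm genes (Hand1, Pdgfra, Foxf1, Gata4, T and Bmp4) was 2285 to 2749 CPM, against 48.9 to 80.6, and that of the keratins Krt8 and Krt18 was 3953 to 4957 CPM, against 31.3 to 43.9. A list of 8 fibroblast genes summed to 1319 to 1709 CPM at day 7 and 22.6 to 31.0 at day 0. Col1a1 (median 1022 CPM at day 7) and Pdgfrb (244) made up most of the sum, Postn (96.6) and Col1a2 (74.5) followed, Dcn and Lum were at 3.07 and 4.33, Thy1 was at 24.2 at day 0 and 4.58 at day 7, and Fap was at 0 in every library. The part of such cells in the results was not tested. In these bulk samples a larger number of cells of a type and more RNA per cell cannot be told apart. Totals ran from 25190483 to 69079368 counts in the matrix of all reads. In the separate matrix divided by genome, 31.2% to 32.0% of counts were resolved. The median tested gene had 233 to 640.5 resolved reads per library. Sirt7 itself was read at 10.02, 10.29 and 15.64 CPM in wild type and at 26.25, 21.02 and 24.81 CPM in the libraries labelled knockout. All 3 knockout values lay above all 3 wild-type values. Which part of Sirt7 was deleted is not stated, so this level does not check the genotype.

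Many autosomal genes were read almost wholly from genome 1: 4416 of the 10658 tested (41.4%) had a genome 2 share (genome 2 reads as a percentage of resolved reads) of at most 1%, and 5257 (49.3%) one of at most 10%. Each gene was classed by the day 0 share of its 10 nearest neighbours on each side, the gene itself left out. Neighbours were genes with at least 20 resolved reads in each day 0 library. Genome 1 regions, with a median neighbour share of at most 10%, held 6148 tested genes, 1302 of which (21.2%) themselves had a day 7 share above 10%. Two-genome regions, with a median of 35% to 65%, held 3189 genes, genome 2 regions, with at least 90%, held 73 genes, and 1248 genes lay in intermediate regions. On chromosome 10, 527 of 528 genes were in genome 1 regions, and on chromosome 16 all 332 were, whereas on chromosome 13 none of 415 was and 373 were in two-genome regions. Chromosomes 5 (597 genes), 7 (612), 9 (452), 11 (373) and 2 (357) held most of the other two-genome genes. The unbroken two-genome stretch at the end of chromosome 11 ran from 87979525 to 121716306 (GRCm38) and held 368 tested genes, with a median share of 52.7%.

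**Figure D1:**
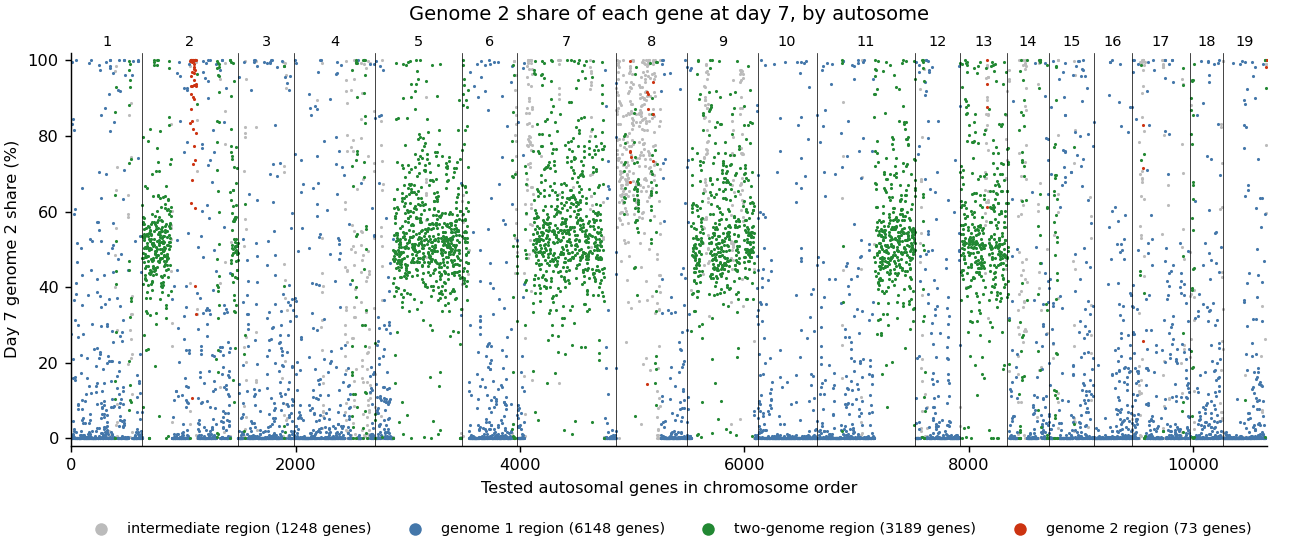
Genome 2 share at day 7 (vertical axis, percent of allele-resolved reads pooled over 6 libraries) of 10658 tested autosomal genes in chromosome order (horizontal axis), coloured by the class of their day 0 neighbours. Shares gather near 0 in genome 1 regions and around 50 in the two-genome stretches of chromosomes 2, 5, 7, 9, 11 and 13, and lie above 50 over the first part of chromosome 8.

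Over all tested genes, 8549 (80.2%) differed between the genomes at an adjusted p of at most 0.05 (edgeR quasi-likelihood test with a library block, Benjamini-Hochberg adjustment over 10658 genes), 6465 (60.7%) with genome 1 higher and 2084 (19.6%) with genome 2 higher, and 7640 (71.7%) were strongly imbalanced as defined below. Taken by genotype within this fit of all 6 libraries, wild type gave 8013 calls (75.2%) and knockout 8034 (75.4%). The genotypes shared an estimate of spread in it, so these counts are not independent. The median share was 0.028% in genome 1 regions, where 202 of 6148 genes (3.29%) nevertheless had a share of at least 90%. A further 1100 genes of genome 1 regions (17.9%) had a share between 10% and 90%, with a median range of 17.1 percentage points over the 6 libraries. The source of these shares was not tested.

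Krt8 and Krt18, partner keratins of simple epithelium that lie side by side on chromosome 15, show this within 1 genome 1 region. Krt18 had a share of 0.019% over 127779 resolved reads, and Krt8 one of 18.3% over 360265 reads, with 17.7% and 19.3% as its lowest and highest library. The libraries thus barely varied while the neighbours differed. Sparc, a matrix glycoprotein gene on chromosome 11, reached 71.9% (70.8% to 74.2%) in a genome 1 region where 1 of its 20 neighbours had a day 0 share of 35% to 65%. At the level of transcripts, its protein-coding isoform ENSMUST00000108858 had a share of 0% in every library and the isoform ENSMUST00000018737 one of 89.4% (72.5% to 98.2%). Gene shares pool the transcripts of a gene, which can differ in this way. Acta2, which encodes smooth muscle actin, had 2 genome 2 reads of 300989.

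In two-genome regions the genomes were read about equally, with a tilt to genome 2. These regions were chosen by a median day 0 neighbour share of 35% to 65%, so that middle shares partly follow from that rule. The pooled share was 54.2% to 54.6% in the 6 libraries, and the median gene had 52.4%, with quartiles of 45.9% and 63.1%. Of the 3189 genes, 1533 (48.1%) passed the test, 1025 (32.1%) with genome 2 higher and 508 (15.9%) with genome 1 higher. By genotype within the same fit, 1216 passed for wild type (38.1%) and 1239 for knockout (38.9%). Strong imbalance, defined as an adjusted p of at most 0.05 and a fitted log2 ratio of at least 1 in size (about 2 reads of 1 genome for each of the other), was found at 890 genes (27.9%), 627 toward genome 2 and 263 toward genome 1. Some two-genome classes average over many neighbours that themselves lie outside 35% to 65%. In the 2676 genes with no fewer neighbours inside 35% to 65% than outside, called even surroundings here, 1140 genes passed and 578 were strong, whereas 312 of the other 513 were strong (60.8%). For this reason the number of even neighbours is given with the lineage genes of two-genome regions named below.

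**Figure D2:**
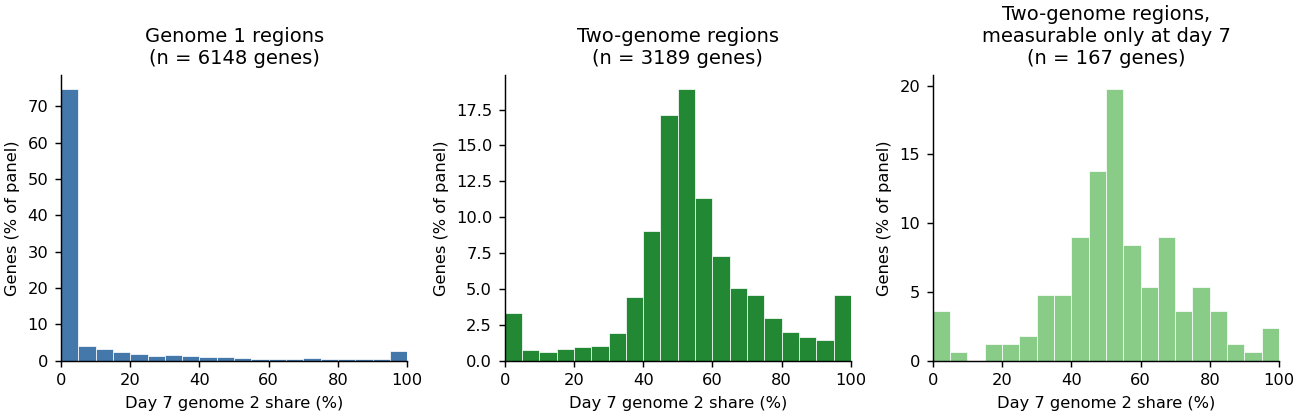
Distribution of the day 7 genome 2 share (horizontal axis, percent) over genes, as a percentage of the genes of each panel (vertical axis), for 6148 genes of genome 1 regions, 3189 genes of two-genome regions and the 167 genes of the latter that were measurable only at day 7. Genome 1 regions pile up near 0, and both two-genome panels peak between 45 and 55.

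Lineage, matrix and signalling genes were called at a rate close to this background. Of 184 tested members of 10 lists, 95 lay in genome 1 regions, 63 of them with a share of at most 1%, and 68 lay in two-genome regions. Of all tested genes of genome 1 regions, 67.6% had a share of at most 1%. Of those 68, 35 passed the test (51.5%, against 48.1% of all two-genome genes) and 19 were strong (27.9%, against 27.9%). Genome 2 was higher at 21 and genome 1 at 14, and the median share was 49.3%. With even surroundings, 8 of 51 members were strong, against 11 of the other 17. Single lists held 1 to 14 genes in two-genome regions. Over all two-genome genes, 32.1% were called with genome 2 higher, 15.9% with genome 1 higher, and 27.9% were strong.

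Among transcription factors of lateral plate and extraembryonic mesoderm, 10 of 18 tested members lay in two-genome regions, 4 with genome 2 higher, 3 with genome 1 higher and 3 not called. Tbx3, a T-box factor used both in pluripotent cells and in the forming heart and limbs (chromosome 5, 119670669 to 119684724), had shares of 78.2%, 81.2% and 80.2% in wild type and 81.8%, 81.2% and 82.8% in knockout. Every library lay far above 50%, and 18 of its 20 neighbours were even. The log2 ratio of genome 2 to genome 1 was 2.09 ± 0.08 (SE), with an edgeR adjusted p of 1.06e-05. Tbx20, a heart field factor measurable only at day 7 (chromosome 9, 24718138 to 24774303, 13 of 20 even), tilted the other way at 42.0%, 37.7% and 38.6% in wild type and 37.6%, 36.0% and 43.0% in knockout. Its log2 ratio was -0.64 ± 0.10 (edgeR adjusted p = 0.00192). Prrx2, a mesenchymal homeobox gene with 20 of 20 even neighbours, was moderately higher from genome 2 at 61.3% (57.5% to 64.97%, edgeR adjusted p = 0.00153).

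Msx1, a homeobox gene of early mesoderm, was close to equal at 49.6% (44.0% to 53.7%, 16 of 20 even) over 23850 reads, and Pdgfra, a growth factor receptor of early mesoderm, at 47.8% (42.3% to 55.9%, 13 of 20 even) over 4100 reads. For Msx1 the 95% interval of the log2 ratio lay within 0.5 of 0, so that an imbalance as large as that of Tbx3 or Tbx20 was outside it. Bmp4, a ligand of the same list, had 97.3%, with 4 of 20 even neighbours, and the transcription factor gene Gata6 had 39.3%, with 3 of 20. The Gata6 value pools unlike transcripts: protein-coding ENSMUST00000047762 had 100% in every library over 859 reads. Its retained-intron transcript ENSMUST00000231831 had 10.4% over 2188 reads. The gene shares of Bmp4 and Gata6 cannot be set apart from those of the surroundings. T (brachyury) and Gata4 lay in genome 1 regions and had no genome 2 read among 20681 and 13870 resolved reads. Were these estimated counts tallies of reads, a share of up to 0.0145% and 0.0216% would be allowed (3 of the total, counting error only).

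Hand1, the most abundant of the mesoderm factors at day 7, was not among the tested genes. Its genome 2 reads were 13535, 19453 and 2 in wild type and 8390, 4 and 6312 in knockout, while genome 1 held 0 to 10 reads in each library. Wild-type replicate 3 and knockout replicate 2, with 40044 and 37270 unassigned reads, thus held next to no allelic reads of Hand1, and over the 6 libraries 11.8% of its reads were resolved. Where it was resolved, this gene of a two-genome region was read from genome 2 alone apart from 10 reads or fewer.

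Primitive streak and paraxial mesoderm genes in two-genome regions were few and near equal: of 5, 1 was higher from genome 2, 1 from genome 1, and none was strong. Cdx2, which patterns the posterior embryo and the trophoblast, had 53.8% (50.4% to 56.0%, 13 of 20 even) and did not pass (edgeR adjusted p = 0.118). Mesp1, which marks the earliest heart mesoderm (13 of 20 even), had 62.4%, 66.5% and 84.3% in wild type and 55.4%, 50.8% and 63.1% in knockout. All 6 values lay above 50%, with a wide spread, and the edgeR adjusted p of 0.0263 became 0.0635 without knockout replicate 1 and 0.0772 without knockout replicate 3. Wnt3, a signal that starts the streak, was at 45.5% (39.98% to 47.4%, 14 of 20 even). Its call (edgeR adjusted p = 0.0351) was lost when any library but knockout replicate 3 was left out, with adjusted p of 0.062 to 0.101, and was 0.262 with TMM factors. Eomes was not called, at 53.3% (42.1% to 62.1%, 16 of 20 even).

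Of endothelial and blood genes, 7 of 15 tested lay in two-genome regions. Against 48.1% of all two-genome genes, 1 of the 7 passed. That gene was Kdr, the main receptor for vascular endothelial growth factor (chromosome 5, 75932827 to 75978458, 14 of 20 even), at 59.5% (53.9% to 62.1%; log2 ratio 0.52 ± 0.13, edgeR adjusted p = 0.00909). Flt1, the related receptor, had 45.9% (43.5% to 50.6%, 12 of 20 even, edgeR adjusted p = 0.057), and the adhesion molecule Pecam1 had 53.5% (48.4% to 58.7%, 17 of 20 even, adjusted p = 0.141). Neither passed, and both intervals lay within 0.5 of 0 on the log2 scale. The transcription factor Fli1 (14 of 20 even), at 43.2%, ranged from 36.9% to 55.4%.

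Trophoblast and simple epithelium had 14 of 21 tested members in two-genome regions, 1 with genome 2 higher, 4 with genome 1 higher and 9 not called. Krt19, a keratin of simple epithelium (chromosome 11, 100140810 to 100148665, 14 of 20 even), was at 32.4%, 31.0% and 34.3% in wild type and 32.8%, 35.1% and 36.0% in knockout. Every library lay below 50%, at about 2 genome 1 reads for each genome 2 read (log2 ratio -0.98 ± 0.08, edgeR adjusted p = 0.000122), just short of the fitted ratio called strong. Plet1, a trophoblast surface marker in even surroundings (12 of 20), had no genome 1 read among 1318. With estimated counts taken as reads and 3 reads over the 6 libraries as the floor, genome 2 was at least 439-fold higher. The neighbours of Grhl2 (10.7%), Grhl3 (0 of 831 reads) and Lgals3 (23.0%) were even in 5, 6 and 5 of 20 cases. Gata3 (48.9%, 14 of 20 even) and Anxa2 (47.7%, 45.5% to 51.1%, 13 of 20) did not pass, and the direction of Anxa2 reversed with TMM factors.

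**Figure D3:**
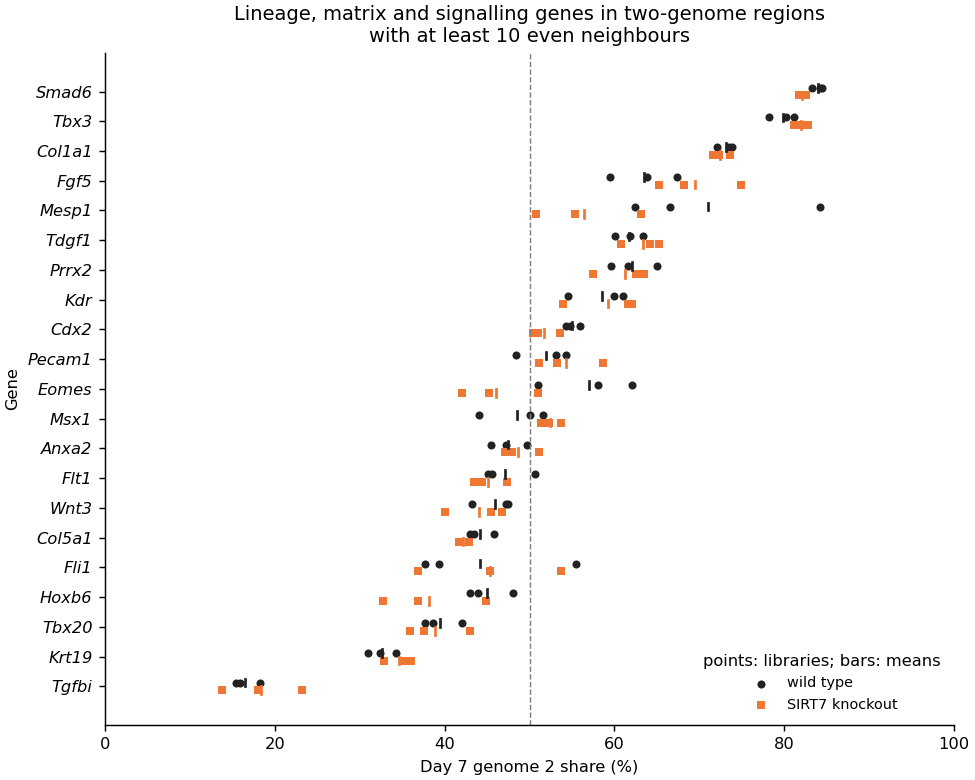
Genome 2 share at day 7 (horizontal axis, percent) of 21 lineage, matrix and signalling genes (vertical axis), chosen after their values were seen from those whose two-genome neighbourhoods hold at least 10 even neighbours. Black circles are the 3 wild-type libraries, orange squares the 3 knockout libraries and bars their means. Smad6, Tbx3 and Col1a1 lie above 70 in every library, Tgfbi lies below 25, and of the genes plotted Mesp1 has the widest spread, from 50.8 to 84.3.

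Of 11 signalling genes in two-genome regions, 7 were higher from genome 2, against 32.1% of all two-genome genes, 1 was higher from genome 1 and 3 were strong. Among inhibitors, Smad6, which limits Bmp signalling inside the cell (chromosome 9, 63953076 to 64022059), had 83.3%, 84.4% and 84.2% in wild type and 81.8%, 82.6% and 81.7% in knockout. All libraries lay within 3 points, with 18 of 20 even neighbours (log2 ratio 2.29 ± 0.08, edgeR adjusted p = 7.04e-06). Nog, a secreted Bmp antagonist that was measurable only at day 7, had 97.8% (96.1% to 100%), with 8 of 20 even. Id3, a Bmp target, had 99.4%, with 4 of 20 even.

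Among ligands, Fgf5, which marks cells leaving the naive state, had 59.5%, 63.8% and 67.3% in wild type and 74.9%, 68.1% and 65.2% in knockout. It was higher from genome 2 in 6 of 6 libraries (log2 ratio 1.00 ± 0.15, edgeR adjusted p = 0.00161, 11 of 20 even). Before rounding, the log2 ratio of Fgf5 lay just short of the size called strong. The Bmp ligands differed in direction: Bmp7 was at 59.7% (52.9% to 70.2%, adjusted p = 0.0214, 12 of 20 even) and Bmp5 at 39.6% (33.2% to 47.8%, adjusted p = 0.0282, 17 of 20 even). Tdgf1, a Nodal co-receptor of the pluripotency list, was at 62.1% (60.1% to 65.3%, 13 of 20 even).

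The Hox genes in two-genome regions were all of the Hoxb cluster on chromosome 11 and share their neighbours. Of 8, 1 passed: Hoxb6 at 42.3% (32.7% to 48.0%, 15 of 20 even, edgeR adjusted p = 0.0238), and its call was lost without knockout replicate 1 or 3 or wild-type replicate 1 or 2 (adjusted p of 0.064 to 0.0733) and was 0.0755 with TMM factors. The 8 shares ran from 31.5% to 47.8%, all under 50%. Hoxb8 (15 of 20 even) ranged from 1.65% to 99.1% between libraries and gives no stable share.

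Matrix genes differed in direction: of 7 in two-genome regions, 1 was higher from genome 2, 3 from genome 1, and 3 were not called. Col1a1, the main fibrillar collagen chain (chromosome 11, 94936224 to 94953042, 13 of 20 even), had 73.9%, 73.5% and 72.1% in wild type and 73.6%, 72.3% and 71.5% in knockout over 71378 reads. The libraries differed by under 3 points, and the log2 ratio was 1.42 ± 0.07 (edgeR adjusted p = 1.87e-05). Col1a2, its partner chain on chromosome 6, had 53.5% (47.3% to 56.5%, 6 of 13 even) and was not called (adjusted p = 0.25). Both are also members of the fibroblast list above. Vim, the mesenchymal intermediate filament gene, was at 50.3% (46.9% to 52.5%, 15 of 20 even) over 273760 reads and was not called (adjusted p = 0.783). Col5a1 was slightly lower at 43.6% (41.7% to 45.9%, 18 of 20 even, adjusted p = 0.00256). Tgfbi, a secreted matrix protein with 16 of 20 even neighbours, had 17.1% (13.7% to 23.2%; log2 ratio -2.26 ± 0.16, edgeR adjusted p = 9.24e-05). By the fitted ratio it was the only member of the 10 lists strongly toward genome 1 in even surroundings, with Krt19 just short of that.

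All 3 muscle genes in two-genome regions were higher from genome 2, against 32.1% of all two-genome genes. Myl4, an atrial myosin light chain, had 93.0% (89.5% to 100%, 12 of 20 even) at 15.2 CPM. Tpm1, which encodes tropomyosin (14 of 20 even), was far less steady, with 93.7%, 49.1% and 65.9% in wild type and 87.6%, 90.8% and 65.4% in knockout. Its edgeR adjusted p of 0.0283 rose to 0.0578 without wild-type replicate 3, 0.0835 without knockout replicate 1 and 0.0851 without knockout replicate 2. Cnn1, at 61.7% (40.1% to 66.0%, 16 of 20 even), likewise lost its call when any library but wild-type replicate 1 was left out (adjusted p of 0.0758 to 0.105).

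The remaining lists had few members in two-genome regions. All 3 neural genes were higher from genome 2 and strong. Among all two-genome genes 32.1% were higher from genome 2, and 27.9% were strong in either direction. The 3 were the transcription factors Sox11 (97.9%, 6 of 20 even) and Otx2 (75.6%, 49.5% to 81.5%, 6 of 20) and the RNA-binding protein gene Msi1 (70.9%, 62.0% to 90.9%, 12 of 20). Otx2 was at 49.5% in wild-type replicate 3 and above 50% in the other 5 libraries. Its protein-coding transcript ENSMUST00000226501 lay on the other side, at 16.4% (0% to 49.5%) over 292 reads, so the gene share pools unlike transcripts. The laminin gene Lamb1 was the only endoderm gene, at 10.8% (9.23% to 12.8%, 5 of 20). Of 5 pluripotency genes 4 were higher from genome 2, against 32.1% of all two-genome genes. Among them were Sall4 at 81.9% (79.2% to 85.8%) and the RNA-binding protein gene Lin28a at 66.9% (65.5% to 67.7%), with 7 and 4 even neighbours. The protein-coding Sall4 isoforms ENSMUST00000029061 and ENSMUST00000103074 had 95.2% and 30.6%.

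In a fit of all 12 libraries with a shared spread, Tbx20 (adjusted p = 0.237), Kdr (0.371), Krt19 (0.0855), Otx2 (0.0719), Fgf5 (0.145), Wnt3 (0.401) and Hoxb6 (0.0597) no longer passed, at the same log2 ratios. TMM factors moved the log2 ratios of named genes by a median of 0.14 toward genome 2, after which Cdx2 (adjusted p = 0.0259) and Pecam1 (0.0355) passed. Without strand, the reads of a gene cannot be told apart from those of a gene that overlaps it. This holds for 1808 of 3189 two-genome genes (56.7%). Of the tested genes named here it holds for Anxa2, Bmp4, Bmp5, Col1a2, Col5a1, Dact1, Emb, Eomes, Fli1, Foxf1, Gab1, Gata3, Gata6, Grhl2, H19, Hand2, Hoxb6, Impact, Inpp5f, Irf2, Krt8, Lin28a, Magel2, Meg3, Mkrn3, Msi1, Myl4, Ncald, Ndn, Otx2, Pde3a, Pdgfra, Plet1, Psmb5, Rubie, Sall4, Sbsn, Sdha, Sfmbt2, Sirt7, Snhg18, Snrpn, Srsf2, Tbx3, Tex26, Trim5, Ube3a and Zfp521.

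Of the tested genes, 558 reached 20 resolved reads in no day 0 library and so could be read by allele only after differentiation, and 167 of them lay in two-genome regions. Their median share was 52.5%, with 73 of 167 called (43.7%), 47 toward genome 2 (28.1%) and 26 toward genome 1 (15.6%), and 48 strong (28.7%), close to the 27.9% of all two-genome genes. Of 23 lineage, matrix and signalling members among them, 8 were called, 3 with genome 2 and 5 with genome 1 higher, and 15 were not. Their median share was 45.9%. Nog was the only strong one, and without it the shares ran from 39.0% for Tbx20 to 65.9% for Fgf5.

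Of the most one-sided genes that came on by day 7, those toward genome 1 mostly lacked even surroundings, and those toward genome 2 were mixed. Toward genome 2, Colec11, a collectin of innate immunity, had no genome 1 read of 1370 (6 of 20 even) and the non-coding RNA Rubie none of 769 (5 of 20). Trim5, of the antiviral Trim family and uncertain because of near copies, had 98.9% (12 of 20), Egr3, an early growth response factor, 92.8% (4 of 20), Zbtb16, a zinc finger factor, 86.6% (10 of 20), Irf2, an interferon regulatory factor, 86.2% (10 of 20) and Sbsn 84.6% (14 of 20). Toward genome 1, Ncald (0 genome 2 reads of 549), Tex26 (0 of 554) and Pde3a (0 of 424) had 5, 6 and 2 even neighbours. Zfp521 had 0.105%, Perm1 4.95%, Snhg18 5.31% and Art4 17.4%, with 2 to 6 even neighbours. Nipal1, at 1.09% of 274 reads, had 14 of 20 even neighbours and was the exception on that side.

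Among genes measured on both days, the most one-sided were also one-sided at day 0. Hsph1, a heat shock protein gene, had no genome 2 read of 8273 at day 7 and 0% at day 0 (6 of 16 even). Reep4 had no genome 1 read of 9180 and 100% at day 0 (5 of 20 even). Srsf2, a splicing factor gene, and Rnd3, a small GTPase gene, were read almost wholly from genome 2 although 13 and 12 of their 20 neighbours were even. Housekeeping genes were called in both directions, with Sdha, of the respiratory chain, at 61.2% (56.8% to 65.9%, 15 of 20 even) and Gusb, a lysosomal enzyme, at 38.5% (33.1% to 48.5%, 11 of 20). The protein-coding Gusb transcript ENSMUST00000026613 went the other way, at 58.4% over 2247 reads, and was unsteady (30.5% to 100%).

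Imprinted genes are read mainly from 1 parental allele, many of them only in certain tissues or as certain transcripts. Of 39 tested, 25 lay in genome 1 regions, 22 of them with a share of at most 1%, against 67.6% of all tested genes of such regions. Examples were the growth-limiting RNA H19 (0.019%), Meg3 (0.047%) and its paternally expressed neighbour Dlk1 (0.115%). Maternally and paternally expressed genes were thus read from the same genome in genome 1 regions. In two-genome regions 11 were tested, and all had reads of both genomes, with shares from 18.97% to 76.5%. In the Prader-Willi cluster of chromosome 7, normally read from the paternal allele, Ndn had 53.2% (49.0% to 54.7%), Peg12 54.96% (51.9% to 59.5%), Mkrn3 45.2% and Magel2 34.996% (22.0% to 47.4%, edgeR adjusted p = 0.0251). Snrpn, at 48.9%, ranged from 26.5% to 71.4%. Ube3a, which is read from the maternal allele in neurons and from both in most other cells, was at 49.1%.

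The 5 strongly imbalanced imprinted genes kept reads from both genomes. Impact had 16.4%, 18.9% and 14.8% in wild type and 18.6%, 23.6% and 19.9% in knockout, with 5 of 20 even neighbours. Sgce had 76.2% (6 of 14 even), Inpp5f 76.5% (60.2% to 93.9%, 11 of 20), Gab1 69.8% (68.0% to 74.6%, 10 of 20) and Sfmbt2 66.7% (55% to 74.5%, 16 of 20). The transcripts of Sgce differed. Protein-coding ENSMUST00000115577 had 51.7% (44.6% to 61.7%) over 5907 reads. The less read protein-coding ENSMUST00000004750 and ENSMUST00000115579 had 88.5% and 90.8%, and retained-intron ENSMUST00000128109 and ENSMUST00000153284 had 100%. The protein-coding transcripts of Gab1 differed too. ENSMUST00000034150 had 79.0% (69.8% to 100%) over 7224 reads, and ENSMUST00000210676 had 45.2% (2.84% to 70.2%) over 2688 reads. Gab1 is imprinted mainly in the placenta, where the paternal allele is read, and at Inpp5f imprinting is known of a variant transcript.

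The first part of chromosome 8, before its genome 1 block, held 394 tested genes with a pooled share of 72.6% to 73.2% in the 6 libraries. Wild type had 72.8% ± 0.156 (SD, n = 3) and knockout 72.9% ± 0.274 (SD, n = 3), a difference smaller than the spread (exact two-sided permutation p = 0.7, where 0.1 is the smallest p that 3 against 3 libraries allow). Hand2, a heart field factor there, had 67.6% (65.1% to 70.2%), below the pooled value of its surroundings. How many copies of each parental chromosome the cells carried was not measured.

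No shift in the balance of the genomes with the knockout was detectable at this number of libraries. Over all two-genome regions the pooled share was 54.3% ± 0.140 in wild type and 54.5% ± 0.222 in knockout (SD, n = 3 each; exact two-sided permutation p = 0.4). In each of 10 chromosomes with at least 40 two-genome genes the pooled share gave an exact permutation p of at least 0.2, with the largest differences on chromosome 14 (49.96% ± 0.596 in wild type, 46.8% ± 2.98 in knockout) and chromosome 6 (57.9% ± 1.24 against 55.8% ± 1.09, SD, n = 3 each). The median gene share differed most on chromosome 4 (56 genes), at 42.9% ± 3.01 in wild type and 47.1% ± 1.24 in knockout (SD, n = 3 each). The genotypes did not overlap there (exact permutation p = 0.1, the smallest possible, and 1 after Benjamini-Hochberg adjustment over the 10 chromosomes). Gene by gene, edgeR called 0 of 10658 genes for a knockout minus wild-type difference in the log2 ratio (0.0%), with 229 at an unadjusted p under 0.05 (2.15%), and DESeq2 called 16 (0.15%). The 3 shares of each genotype did not overlap at 630 genes (5.91%).

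The 12 genes with the smallest p, 6 in each direction, had an edgeR adjusted p of at least 0.606, and 10 of them passed with DESeq2. Apoe, a lipid carrier (chromosome 7, 19696109 to 19699188, intermediate region), had 83.0%, 81.1% and 81.1% in wild type and 61.1%, 51.5% and 54.5% in knockout. The groups lay about 20 points apart at their nearest libraries, and the difference in log2 ratio was -1.83 ± 0.20 (edgeR adjusted p = 0.606, DESeq2 adjusted p = 1.92e-05). The Apoe share pools unlike transcripts: protein-coding ENSMUST00000174064 had 55.4% (0% to 68.8%) over 7530 reads and retained-intron ENSMUST00000207525 had 99.8% over 2389 reads. The part of these transcripts in the difference was not tested. Psmb5, a proteasome subunit, had 80.9%, 81.6% and 76.3% in wild type and 100% in all 3 knockout libraries. Ndufa4, a respiratory chain protein in even surroundings (11 of 20), had 58.5%, 48.4% and 55.7% against 29.9%, 23.5% and 32.7% (difference -1.56 ± 0.26, edgeR adjusted p = 1, DESeq2 adjusted p = 0.0456). Dact1, a modulator of Wnt signalling, had 66.7%, 67.1% and 78.6% against 13.03%, 24.8% and 19.5%. None of these differences passed the main test.

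**Figure D4:**
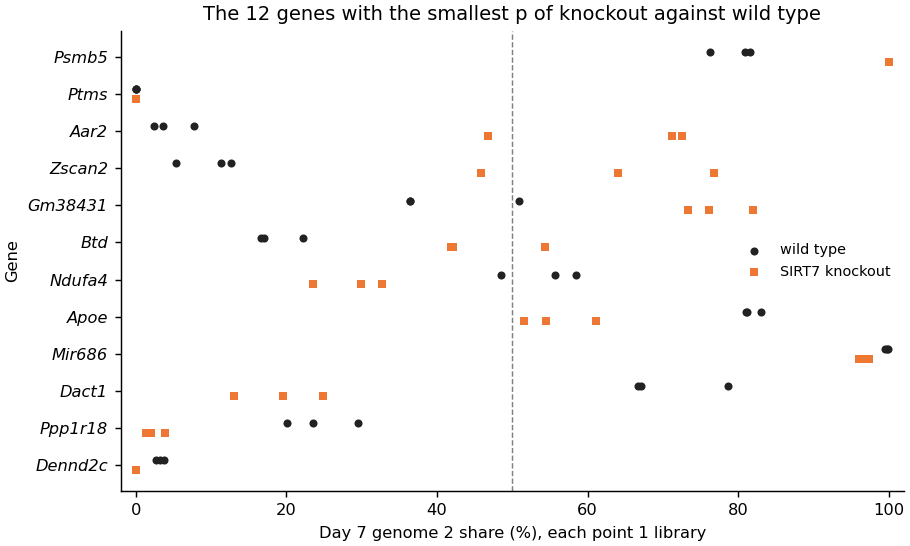
Genome 2 share at day 7 (horizontal axis, percent) of the 12 genes (vertical axis) with the smallest p of knockout against wild type, 1 point per library, with wild type as black circles and knockout as orange squares. The genotypes do not overlap at Apoe, Dact1, Ndufa4 and Psmb5, yet no edgeR adjusted p is below 0.606.

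Allelic balance at day 7 was mostly that of day 0. Of 2746 two-genome genes measured in all 12 libraries, 2230 (81.2%) had day 7 and day 0 shares within 10 points, and the median absolute difference was 4.09 points. Of 755 strongly imbalanced at day 7, 732 were on the same side at day 0. The change in log2 ratio passed at 116 of 2746 (4.22%), within 263 of 9038 autosomal genes (2.91%), and DESeq2 called 710 (7.86%). Leaving out 1 library gave 62 to 132 of the 2746, and each of the 6 day 7 libraries moved the count by over 1.5 times when left out.

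Of these 116 genes, 71 had a higher genome 2 share at day 7 and 45 a lower one, and the share was closer to 50% at day 7 in 81 and farther from it in 35. The level (mean CPM) was within 1.5 times between the days in 39 of them, over 1.5 times higher at day 7 in 44 and over 1.5 times lower in 33. The genes that follow were chosen after their values were seen. Emb, an adhesion molecule gene with 8 of 18 even neighbours, had the smallest adjusted p of the 116 (8.01e-05, edgeR) and went from 78.7% (74.2% to 80.9%) at day 0 to 46.0% (41.3% to 49.5%) at day 7, at 114 and 143 CPM. Jup, a junction protein gene (16 of 20 even), went from 13.8% to 46.6% at 148 and 166 CPM (edgeR adjusted p = 0.000562). Both thus shifted by over 30 points at levels within 1.5 times of each other, the one downward and the other upward. Col1a1 went from 32.0% at day 0 (16.2% to 50% over 6 libraries), at 3.25 CPM, to 73.1% at day 7 (71.5% to 73.9%), at 1046 CPM, with no overlap between the days (log2 change 2.47 ± 0.28, edgeR adjusted p = 0.00267). Tgfbi went the other way, from 55.6% to 17.1% (adjusted p = 0.0152), as did Igfbp4, an insulin-like growth factor binding protein, from 57.4% to 19.4% (adjusted p = 0.00449). The growth factor gene Tgfb1 went from 13.2% to 52.7%, Gata3 from 8.31% to 48.9%, Prrx2 from 29.7% to 61.3% and the thrombin receptor gene F2r from 25.6% to 64.9%. Myl4 went from 48.3% to 93.0% and P4ha3, a collagen-modifying enzyme, from 98.4% to 48.1%. Tgfb1, Gata3 and P4ha3 thus came closer to 50% at day 7, whereas Tgfbi, Igfbp4 and Myl4 moved away from it. The levels of these genes differed between the days: Col1a1, Tgfbi, Igfbp4, Tgfb1, Gata3, Prrx2, F2r and Myl4 were read at 3.25 to 18.7 CPM at day 0 and at 15.2 to 1046 CPM at day 7, and P4ha3 at 21.8 and 4.67 CPM. The part of the level in these shifts was not tested. Rpa3, of the replication protein A complex, went from 76.4% to 42.5% at 14.8 and 14.7 CPM (adjusted p = 0.0400), and Slco4a1 from 52.5% to 23.9% at 13.6 and 13.9 CPM (adjusted p = 0.00439). Gab1 shifted from 49.6% (45.4% to 51.5%) to 69.8% at 129.9 and 85.6 CPM, deeply read on both days (edgeR adjusted p = 0.00134). Its protein-coding transcripts differed in share at day 7, as given above, and their part in this shift was not tested.

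**Figure D5:**
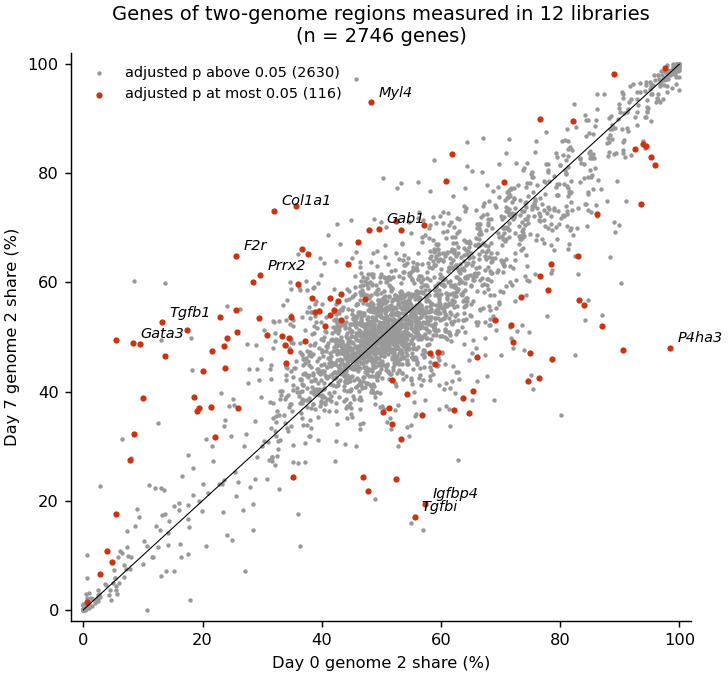
Genome 2 share at day 7 (vertical axis, percent) against day 0 (horizontal axis, percent) for 2746 genes of two-genome regions measured in all 12 libraries. Red points are the 116 genes with an edgeR adjusted p of at most 0.05 for the change, grey points the other 2630, and the line marks equal shares. Most genes lie along the line, and Col1a1, Tgfbi, Igfbp4, Myl4 and P4ha3 lie far from it.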

How the data were processed

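Reads were processed, per the submitters' processing notes, with StringTie 1.3.3, HISAT2 2.1.0, Trimmomatic 0.36, SAMtools 0.1.19, DESeq2 1.32.0 and FastQC 0.11.3, on mm10 or GRCm38. The authors deposited expected counts per gene and per transcript, not normalized, divided into genome 1, genome 2 and unassigned reads, and expected counts of all reads. These are whole numbers, called reads in the text although they are estimates, and the tests used them unchanged. How reads were assigned to a genome, and whether strand was used, is not given in the sources used here, so that overlapping genes are uncertain.

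Gene identifiers were matched to GENCODE M21 (GRCm38), 55141 of 55487. Genome 1 and genome 2 counts of a library entered edgeR 4.0.16 (R 4.3.3) as a pair of columns with their summed library size, a library block and an allele term per genotype. DESeq2 1.42.0 was an alternative, with other scalings, count minimums, region rules and leaving out libraries. Transcript shares are pooled reads. The scripts were tested on simulated data. Replicates differed by more than sampling noise (chi-square over degrees of freedom 24.6 to 60.7). Intervals are 95%.

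Members and gene lists were chosen with earlier results of these data known. Named genes were the most imbalanced in two-genome regions with 6 libraries on the same side (8 each way among genes measurable only at day 7, 4 each way on both days), up to 4 per list by adjusted p, 6 deeply read lineage genes near equality, strongly imbalanced imprinted genes, the 6 each way with the smallest p of knockout against wild type, and 4 deeply read lineage genes of one-genome regions. Hand1, Hand2, T, Gata4, Gata6, Pdgfra, Bmp4, Bmp5, Bmp7, Krt18, Grhl3, Gata3, Vim, Hoxb8, H19, Meg3, Dlk1, the other imprinted genes of chromosome 7 and the genes named only for their change since day 0 were named after their values were seen. Even surroundings were a rule added after seeing the data.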

Additional observations from a re-analysis of the deposited data

Results flagged for a closer look

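Dact1, a modulator of Wnt signalling on chromosome 12 (71309884 to 71320107, in a genome 1 region, with 3 of 20 even neighbours), was set apart because every wild-type library lay above an even share (66.7%, 67.1% and 78.6%) and every library labelled knockout below it (13.03%, 24.8% and 19.5%). The log2 ratio of genome 2 to genome 1 was lower in knockout by 3.39, that is, the difference was -3.39 ± 0.46 (SE), with an edgeR adjusted p of 0.66 and a DESeq2 adjusted p of 1.92e-05. It rested on 1021 resolved reads over the 6 libraries, and the gene overlaps another gene.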

How the results depend on the processing

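Leaving out genes that overlap another gene, which tests fewer genes by construction, gave 3807 imbalanced genes (964 with genome 2 higher, 3395 strong), 3595 in wild type, 3581 in knockout, and in two-genome regions 693 (461 with genome 2 higher, 404 strong, 31 measurable only at day 7). Genes measurable only at day 7 gave 117 calls with no count minimum and 45 with 50 reads. Even surroundings, a rule chosen after seeing the data, left 578 strong genes. DESeq2 called 16 genes for knockout against wild type (290 at an unadjusted p under 0.05), and for day 7 against day 0 it called 710, and 318 in two-genome regions; the cause was not tested. Without 1 library at a time, the day comparison gave 116 to 328 calls and 62 to 132 in two-genome regions. The two-genome count of 1533 was 1140 with even surroundings, stayed between 1339 and 1734 in all settings run other than these 2, and was 1620 with TMM factors, 1224 of them with genome 2 higher. Of named genes, none of them called, the log2 ratio of Ube3a (-0.0845 to 0.205) and Msx1 (-0.0171 to 0.0934) changed sign without 1 library, and that of Anxa2 with TMM factors (0.0311). Replicate numbers gave no sign of pairing the libraries, neither wild type with knockout at day 7 (same-numbered correlations of -0.0308 to 0.0379) nor day 0 with day 7 within a genotype (-0.0877 to -0.000359). These correlations cover allelic shares only, so they cannot tell whether same-numbered libraries were cultured or processed together. With a replicate block 8403 genes were imbalanced, 1436 of them in two-genome regions, 0 differed by genotype and 205 by day. Depth limits the genes near 20 reads most.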
